A study of Mus musculus with 6 samples.

Results

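The 39 Hox genes were examined in pancreas dissected from mouse embryos at E13.5. They were every row of the count files named Hox followed by a cluster letter (a, b, c or d) and a paralogue number, 39 of 23337 rows. Control pools came from wildtype embryos of the NMRI strain, and mutant pools from NMRI embryos labelled Prox1-nullyzygous (Prox1 GFPCre/D). There were 3 control and 3 mutant pools, each of 5 to 6 pancreata of 1 genotype, and 1 mRNA library per pool. What either mutant allele lacks of the Prox1 locus is not stated, and no agent was given to either group.

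Hox genes encode homeodomain transcription factors that give cells of the embryo their position along the head-to-tail axis. In the mouse they lie in 4 clusters, and their order along the chromosome, which the paralogue number follows, matches the order of their expression domains: low numbers reach furthest towards the head and high numbers are limited to the tail end, limbs and urogenital tract. Gut organs carry regional Hox codes mainly in the mesenchyme, the connective tissue that surrounds the epithelium, and in nerve cells derived from the neural crest. The dissected organ contains these tissues together with the epithelium that forms acinar, duct and endocrine cells.

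Coordinates follow GENCODE M21 (GRCm38, or mm10, the build in the submitters' processing notes). HoxA lies on chromosome 6, on the minus strand, up to position 52260880 and holds 11 genes. HoxB spans chromosome 11 from 96194316 to 96368256 with 10 genes, HoxC chromosome 15 from 102921103 to 103036852 with 9 and HoxD chromosome 2 from 74668310 to 74765142 with 9, all on the plus strand. Of the 39 genes, 14 share exon bases with another annotated gene, so reads in those bases may have been left out or given to the neighbour. The share was 91.25% for Hoxd3, 63.9% for Hoxb3 and 58.5% for Hoxb2, and 0% for Hoxa5, Hoxb4 and Hoxb6. For Hoxb2 and Hoxb3 the shared bases lie on the other strand, in Hoxb3os, for which no row was found in the counts.

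Sequences upstream of Hox genes are shown first, because read and unread members lie side by side in the same CpG-rich clusters. The RefSeq promoter table (GRCm38.p6) held 24 start sites of 22 Hox genes, and the 250 bases before each were read. These windows held a median of 12.5 CpG dinucleotides, the pairs at which mammalian DNA can be methylated, against 6 over all 32851 windows of that length in the table. The 12 windows of Hox genes with enough reads to be tested had a median of 12, and the 12 windows of genes with fewer reads had a median of 16.5. The sequences are shown 5′ to 3′ on the gene's own strand with each CpG in capitals, for 2 genes that were read in every pool (Hoxa5 and Hoxb4) and 2 that had no read in any (Hoxa13 and Hoxd12).
Hoxa5: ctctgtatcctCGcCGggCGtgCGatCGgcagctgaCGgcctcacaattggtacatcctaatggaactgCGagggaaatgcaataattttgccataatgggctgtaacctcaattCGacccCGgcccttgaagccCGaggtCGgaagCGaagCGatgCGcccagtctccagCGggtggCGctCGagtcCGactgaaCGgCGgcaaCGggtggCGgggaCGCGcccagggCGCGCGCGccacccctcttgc
Hoxb4: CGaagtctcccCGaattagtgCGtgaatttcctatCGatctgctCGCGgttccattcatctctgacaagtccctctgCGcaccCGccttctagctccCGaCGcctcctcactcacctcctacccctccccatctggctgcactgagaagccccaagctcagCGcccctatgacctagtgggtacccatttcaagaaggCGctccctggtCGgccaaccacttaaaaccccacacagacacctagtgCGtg
Hoxa13: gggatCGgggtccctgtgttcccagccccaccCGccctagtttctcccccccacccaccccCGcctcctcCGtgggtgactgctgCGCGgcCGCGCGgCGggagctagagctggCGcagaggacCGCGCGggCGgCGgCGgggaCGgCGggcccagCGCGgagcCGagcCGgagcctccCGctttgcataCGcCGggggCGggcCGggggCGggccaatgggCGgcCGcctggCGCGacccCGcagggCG
Hoxd12: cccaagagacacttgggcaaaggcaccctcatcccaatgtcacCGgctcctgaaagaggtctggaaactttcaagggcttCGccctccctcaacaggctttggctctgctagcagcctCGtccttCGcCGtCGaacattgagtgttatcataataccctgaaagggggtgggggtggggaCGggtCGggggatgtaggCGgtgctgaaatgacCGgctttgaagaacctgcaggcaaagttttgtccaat
The Hoxa5 window lies at chr6:52204588-52204837 on the minus strand, with 28 CpG, and the Hoxa13 window at chr6:52260881-52261130 on the minus strand, with 35. The Hoxb4 window lies at chr11:96318017-96318266 on the plus strand, with 14 CpG, and the Hoxd12 window at chr2:74674763-74675012 on the plus strand, with 10. The window with the most CpG of all 24 thus lay before Hoxa13, a gene with no read. The motif AGGTCA, the half-site of retinoic acid receptors, was found on either strand in 6 of the 24 windows (25.0%) and in 14.02% of all windows. TGACAG, a motif of the Meis partner proteins, was found in 2 (8.33%) and in 15.9% of all windows, and TGATTNAT, a joint motif of Pbx and Hox proteins, in 2 (8.33%) and in 2.82%. A match of letters is a description and not a bound site.

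The libraries held 16060424 to 17633867 counts each. CPM, the usual depth-scaled count, is here relative to the library's reads in tested genes after TMM scaling, so 1 CPM stood for 15.9 to 17.5 reads. Prox1, the targeted gene, was counted at 1764, 1687 and 1824 reads in controls and at 1330, 1774 and 1602 in mutants, in pool order. The groups overlapped, and without knowledge of the deleted part this count does not check the labels. Mesenchyme was plentiful in every pool: its 14 listed markers summed to 9111 to 9398 CPM in controls and 10149 to 11565 CPM in mutants. The 12 listed neural crest and neuron markers summed to 265.8 to 354.9 CPM in controls and 232.3 to 264.6 CPM in mutants, and 6 of them were called lower by edgeR, against 4.28% of all genes. Of 8 genes listed as neural tube markers Olig2 and Lhx5 were at 0 in every pool, and all 8 summed to at most 2.59 CPM. Foxd3 was the largest part of that sum in every pool, at 1.09 to 2.19 CPM.

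Hox expression in the embryonic pancreas was a front-and-middle code that ended abruptly. All Hox genes together summed to 300.0, 339.2 and 281.8 CPM in control pools 1 to 3 and to 313.3, 322.6 and 335.0 CPM in mutant pools 1 to 3, so the groups overlapped. Per kilobase of exon, the scale used here to compare genes, paralogues 4 to 8 held 63.7% of the Hox signal (62.3% to 65.3% over 6 pools) and paralogues 1 to 3 held 35.5% (33.7% to 37.4%). Paralogue 9 held 0.606% and paralogues 10 to 13 held 0.174%, with at most 0.825% and 0.697% in any pool. By cluster, HoxB held 51.2% (49.9% to 52.8%), HoxA 37.5% (34.9% to 39.4%), HoxC 8.34% (7.46% to 9.95%) and HoxD 2.99% (2.47% to 3.43%). No range of 1 cluster met that of another. These ranges cover the spread between pools and not the choice of exon length. With every annotated exon counted, the mean over 6 pools fell from 14.3 to 6.68 CPM per kilobase for Hoxb2 and from 10.8 to 4.65 for Hoxa3. Hoxb5 fell from 12.6 to 8.56, and Hoxa5 stayed at 24.8. On that length the share of paralogues 1 to 3 is lower and that of paralogues 4 to 8 higher than given here.

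**Figure D1:**
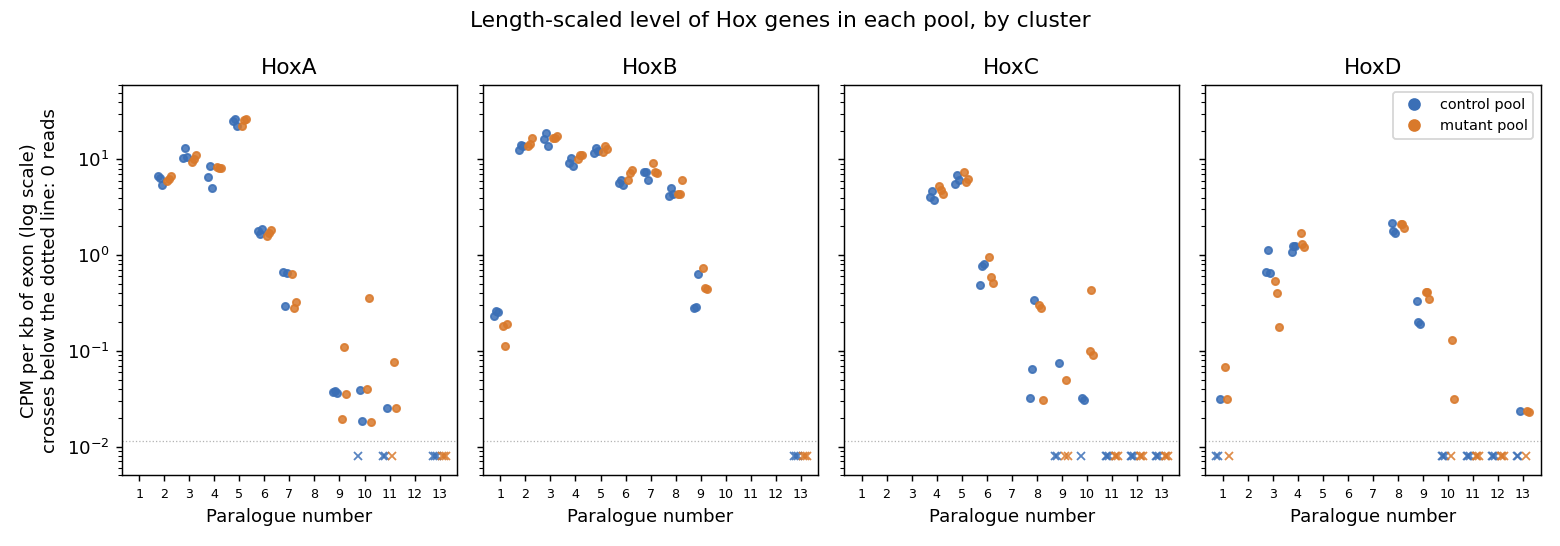
Level of 38 of the 39 Hox genes in CPM per kilobase of exon (log axis) against paralogue number, 1 panel per cluster; each point is 1 pool, control or mutant, and crosses mark pools with 0 reads. The level was highest at Hoxa5, followed by Hoxb3, Hoxb2 and Hoxb5, and levels fell steeply past paralogue 5 in HoxA and HoxC and past paralogue 8 in HoxB and HoxD.

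Hoxa5, a regulator of the mesenchyme of lung and other foregut organs, was the most abundant Hox transcript per length. Its level was 25.3, 26.3 and 22.1 CPM per kilobase in control pools 1 to 3 and 22.1, 26.1 and 26.6 in mutant pools 1 to 3. These values lay above those of any other Hox gene in any pool. Hoxb3, which patterns hindbrain and pharyngeal structures, came next at a mean of 16.6 CPM per kilobase over 6 pools (13.8 to 18.9), and Hoxb2 followed at 14.3 (12.6 to 16.9). Hoxb5, a regulator of enteric neural crest development, stood at 12.6 (11.7 to 13.7), Hoxa3 at 10.8 (9.39 to 13.2) and Hoxb4 at 10.1 (8.45 to 11.2). Each of these overlapped its neighbour in rank, so their order was not resolved by the spread between pools. From Hoxb3 down to Hoxc4, at 4.50 (3.80 to 5.34), no gene stood clear of the next. A gap then separated Hoxc4 from Hoxd8 at 1.97 (1.70 to 2.15). The ranks rest on the annotated length: with every annotated exon counted, Hoxa3 moved from rank 5 to rank 12 and Hoxb2 from rank 3 to rank 6, while Hoxa5 and Hoxb3 kept ranks 1 and 2.

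Steep steps came at different paralogue numbers in the 4 clusters. In HoxA a first step lay between Hoxa5 and Hoxa6, whose annotated ends are 1700 bases apart: Hoxa5 exceeded Hoxa6 by a median of 14.4-fold per length, from 11.8-fold to 15.8-fold over pools. A second lay between Hoxa7 and Hoxa9, at a median of 13.6-fold, but with 1 to 6 reads of Hoxa9 per pool it ranged from 2.59-fold to 32.4-fold. Hoxc5 exceeded Hoxc6 by 9.37-fold (7.42 to 12.4), and Hoxc6 exceeded Hoxc8 by 7.48-fold (2.10 to 16.5), again with few reads of the second gene. In HoxB, Hoxb2 to Hoxb8 differed from their neighbours by at most 2.25-fold in any pool, and the step came between Hoxb8 and Hoxb9, at 11.6-fold (5.99 to 17.7). In HoxD it also came after paralogue 8, with Hoxd8 6.00-fold above Hoxd9 (5.14 to 8.90). Each of these steps had the same direction in all 6 pools. The other end of the clusters was low as well: Hoxb1, an early hindbrain gene, had 4 to 9 reads per pool, and Hoxd1 had 0 to 2.

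Genes towards the tail end of the clusters were at or near 0. The 7 rows Hoxa13, Hoxb13, Hoxc11, Hoxc12, Hoxc13, Hoxd11 and Hoxd12 had no read in any pool, which allows up to 3 reads per library, or 0.172 to 0.189 CPM. Hoxd13 had 0 to 1 read per pool, and Hoxc9 and Hoxa11 0 to 3. Hoxa9 had 2, 2 and 2 reads in controls and 1, 6 and 2 in mutants. Hoxc8 was uneven, with 1, 2 and 11 reads in controls and 9, 9 and 1 in mutants. Such limits cover counting error only.

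Mutant pool 2 departed furthest from this pattern. Hoxa10, a patterning gene of the lumbar axis, limb and reproductive tract, had 19 reads in mutant pool 2 against 0, 2 and 1 in controls and 2 and 1 in the other mutant pools. Its paralogue Hoxc10 had 14 reads there, against 0, 1 and 1 in controls and 3 and 3 in the other mutant pools, and Hoxd10 had 4 against 0 to 1. Mutant pool 2 thus held 37 of the 52 reads of paralogue 10 (71.2%), while it made up 16.9% of the summed library size. Pool and paralogue were picked after their counts were seen, so this share is a description and not a test. Over all 12 rows of paralogues 10 to 13, reads were 0, 3 and 4 in control pools 1 to 3 and 5, 41 and 7 in mutant pools 1 to 3. In this sum and in Hoxc10 every mutant pool lay above every control, on few reads, while Hoxa10 and Hoxd10 overlapped between groups. The same pool stood apart in skeletal muscle genes: the 6 listed markers summed to 69.1 CPM there and to 2.45 to 10.3 CPM in the other pools. Actc1, encoding cardiac alpha-actin, which embryonic skeletal muscle also makes, was at 49.9 CPM in that pool and 0.351 to 6.21 CPM elsewhere, and the muscle regulator Myog was at 6.36 CPM against 0.179 to 1.34 CPM. The part of muscle or other tissue in the Hoxa10 and Hoxc10 reads was not tested. None of the paralogue 10 genes passed the count filter, so the main fit gives no fold change between genotypes for them. With no filter, edgeR called 0 Hox genes, and Hoxc10 had the smallest adjusted p of 32 (edgeR adjusted p = 0.115).

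**Figure D2:**
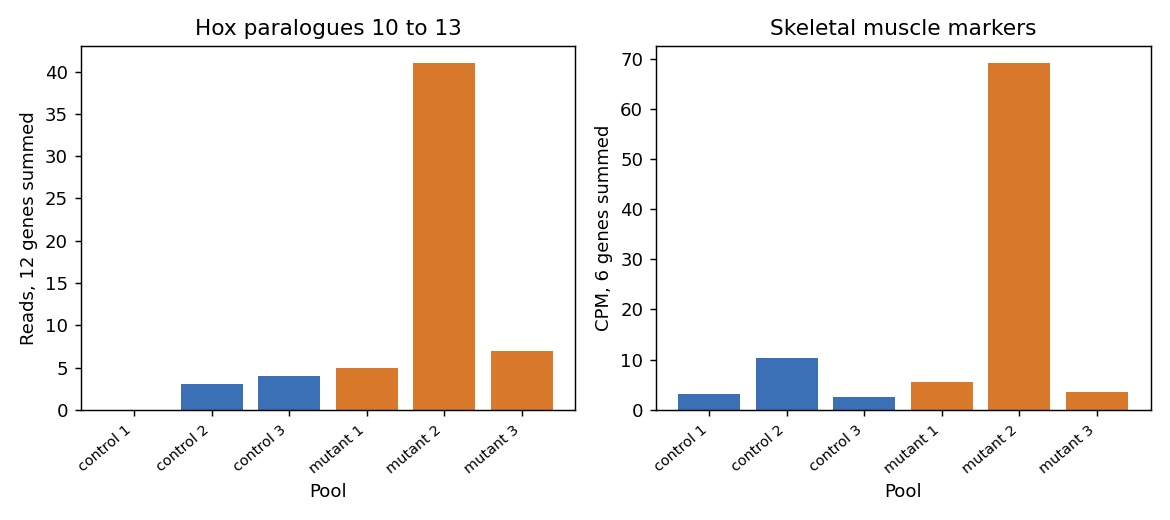
Left, reads of the 12 Hox genes of paralogues 10 to 13 summed per pool; right, CPM of 6 skeletal muscle markers summed per pool. Bars are single pools, and mutant pool 2 is highest in both, at 41 reads and 69.1 CPM.

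The comparison of mutant with control pools asks whether the regional code of the organ differed between the labelled genotypes. No Hox gene was called changed. Of the 39 genes, 22 passed the filter on low counts, and edgeR's quasi-likelihood test with Benjamini-Hochberg adjustment over 14687 genes called 0 of them higher and 0 lower at an adjusted p under 0.05. Over all genes tested, 7.95% were called, 3.67% higher and 4.28% lower. At an unadjusted p under 0.05 stood 4 of the 22, Hoxd3, Hoxb4 and Hoxb6 among them, against 21.1% of all genes. DESeq2 and limma voom called 0 Hox genes as well, with 1 and 4 at an unadjusted p under 0.05. In bulk tissue, a change in the number of Hox-expressing cells and a change in RNA per cell cannot be told apart.

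**Figure D3:**
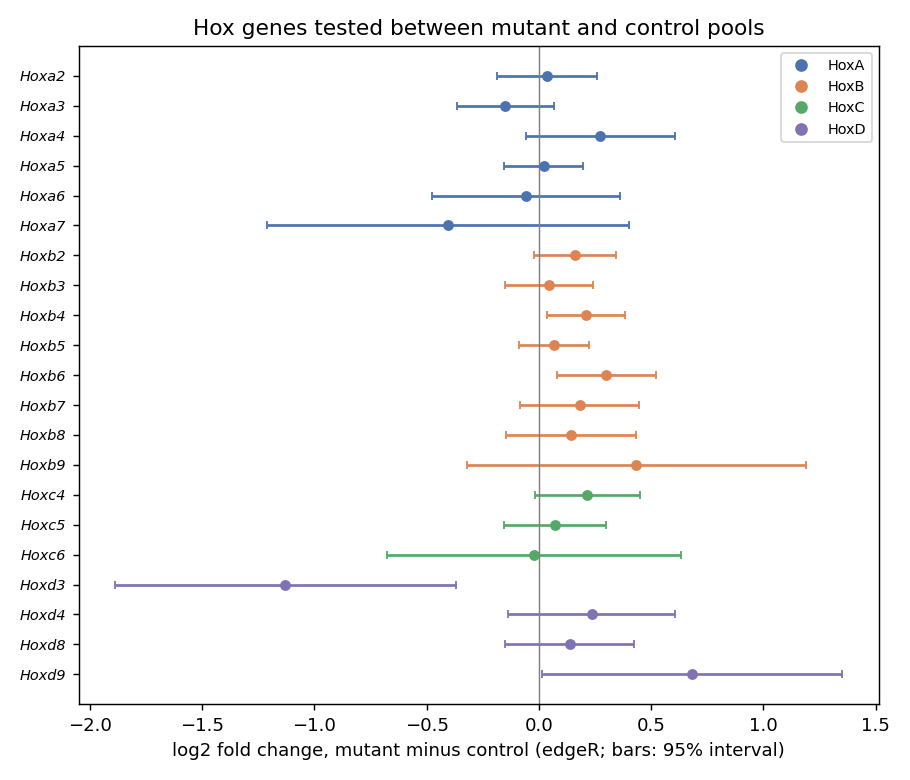
Log2 fold change (mutant minus control) of 21 of the 22 Hox genes tested, with 95% intervals from edgeR standard errors, coloured by cluster. The intervals assume normality and are narrower than the F test implies. All values lie between -1.13 (Hoxd3) and 0.68 (Hoxd9), and genes with few reads have the widest intervals.

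The smallest standard errors were those of abundant members. The 13 genes with a mean of at least 100 reads had log2 fold changes from -0.15 (Hoxa3) to 0.30 (Hoxb6), with standard errors of 0.079 to 0.17. Their 95% intervals, which assume normality and are narrower than the F test implies, lay between -0.37 and 0.61. Hoxa5 was level between groups, at 47.5, 49.5 and 41.6 CPM in control pools 1 to 3 and 41.6, 48.9 and 49.9 CPM in mutant pools 1 to 3. Its log2 fold change was 0.02 (95% interval -0.15 to 0.20). Of the 13, 12 had a value above 0, and 11 with total-count scaling, where Hoxa5 fell just below 0. The number was 9 without control pool 3 or without mutant pool 3 and 8 without control pool 3 and mutant pool 1 together, and 50.2% of all genes were above 0.

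No HoxB gene was called, and the 8 tested had log2 fold changes from 0.05 to 0.43. Hoxb6, a gene of posterior mesoderm and of gut and pancreatic mesenchyme, was at 11.1, 11.9 and 10.6 CPM in control pools 1 to 3 and 12.01, 14.3 and 15.1 CPM in mutant pools 1 to 3. The groups did not overlap, though mutant pool 1 lay close to control pool 2, and at a log2 fold change of 0.30 (SE 0.11) the gene missed the threshold (edgeR adjusted p = 0.157). Hoxb4, a regulator of stem and progenitor cells in blood and mesoderm, was at 23.6, 26.6 and 21.7 CPM in controls and 25.9, 28.5 and 28.8 CPM in mutants, with overlap through control pool 2. Its log2 fold change was 0.21 (SE 0.089, edgeR adjusted p = 0.212). Hoxb3 stood at 57.6, 66.6 and 48.6 CPM in controls and 58.6, 58.3 and 61.3 CPM in mutants, and Hoxb2 at 22.0 ± 1.36 CPM and 24.6 ± 2.65 CPM (SD, n = 3). Hoxb9, the most tailward HoxB gene with reads, had 12, 12 and 28 reads in controls and 30, 20 and 20 in mutants. The 2 groups overlapped, and its log2 fold change of 0.43 (SE 0.38) ranged from 0.17 to 0.94 as single pools were left out. Their median was 0.17, against 0.0005 for all genes tested, and 1 of the 8 had groups that did not overlap, with mutants higher, as did 13.1% of all genes. Hoxb3 turned to -0.067 without control pool 3. Hoxb1, under the count filter, had 8, 9 and 9 reads in controls and 6, 4 and 7 in mutants, so its mutant pools lay below its controls, with no test.

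HoxA members went in both directions and none was called: 3 of 7 tested had a value above 0, against 50.2% of all genes, with a median of -0.06. Their log2 fold changes ran from -0.51 to 0.27, with standard errors of 0.089 to 0.41. Of the 7, 1 had an unadjusted edgeR p under 0.05, against 21.1% of all genes. The larger standard errors leave room for differences in either direction. Hoxa3, which patterns the pharyngeal organs, was at 26.6, 34.3 and 27.4 CPM in controls and 24.3, 26.0 and 29.1 CPM in mutants, and the groups overlapped.

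HoxC genes were close between groups. Hoxc5 was at 16.3, 20.2 and 17.6 CPM in controls and 21.5, 17.0 and 18.4 CPM in mutants, with a log2 fold change of 0.07 (95% interval -0.15 to 0.30). Hoxc4 was at 10.4, 11.9 and 9.76 CPM in controls and 13.7, 12.3 and 11.3 CPM in mutants, with a log2 fold change of 0.22 (95% interval -0.02 to 0.45). Mutant pool 1 was highest in both genes, and control pool 2 overlapped the mutants in both. Hoxc6 had 13 to 22 reads in controls and 14 to 24 in mutants. The remaining tested members, Hoxa2, Hoxa4, Hoxa6, Hoxa7, Hoxb5, Hoxb7 and Hoxb8, overlapped between groups, with log2 fold changes from -0.40 (Hoxa7) to 0.27 (Hoxa4).

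HoxD held the largest differences and the fewest reads. Hoxd3, a regulator of axial skeleton and neural crest derivatives, was covered by 36, 60 and 36 reads in controls and by 28, 22 and 10 in mutants. All 3 mutant pools lay below all controls, at 1.21 ± 0.599 CPM against 2.64 ± 0.882 CPM (SD, n = 3). At a log2 fold change of -1.13 (SE 0.39, 95% interval -1.89 to -0.37) the gene was not called (edgeR adjusted p = 0.125), and adjusted p lay between 0.0767 and 0.273 over the alternatives run. Neural crest and neuron markers were lower in the same pools, as given above, and their part in the Hoxd3 counts was not tested. Hoxd4, its neighbour with which it shares annotated exons, did not follow: it had 46, 53 and 55 reads in controls and 69, 57 and 55 in mutants, with a log2 fold change of 0.24 (SE 0.19), or 0.086 without mutant pool 1. Hoxd8, the most abundant HoxD gene per length, stood at 5.91, 4.87 and 4.68 CPM in controls and 5.85, 5.83 and 5.32 CPM in mutants. Hoxd9 had 12, 7 and 7 reads in controls and 14, 15 and 13 in mutants. The Hoxd9 groups did not overlap, and the gene missed the threshold at a log2 fold change of 0.68 (SE 0.34, edgeR adjusted p = 0.303).

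**Figure D4:**
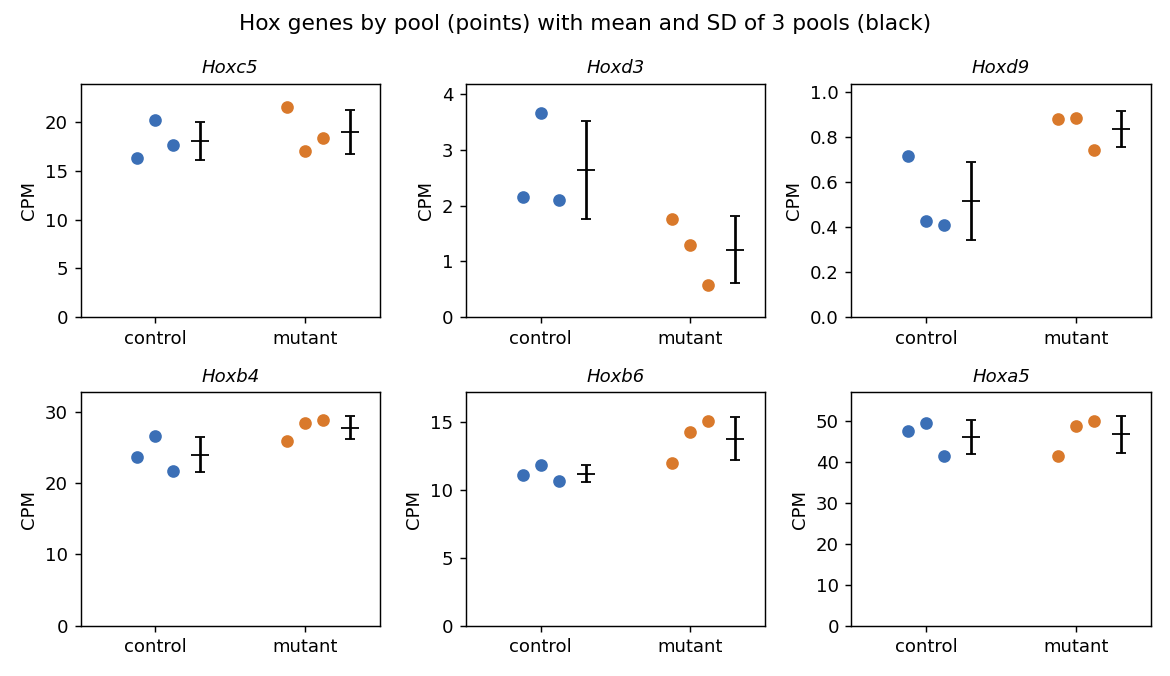
CPM of 6 Hox genes in each pool, with the mean and SD of 3 pools per genotype. Hoxd3 is lower and Hoxd9 and Hoxb6 are higher in every mutant pool than in any control pool, Hoxb4 overlaps through control pool 2, and Hoxa5 and Hoxc5 overlap; no difference was called.

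In total, 3 of the 22 tested genes had no overlap between groups (Hoxb6 and Hoxd9 higher, Hoxd3 lower), against 26.4% of all genes tested. Pools of a group also differed from each other: control pool 3 held the lowest value of 10 of the 22 genes and control pool 1 of 7, while mutant pools 1 and 3 each held the highest value of 6. Control pool 2 held the highest value of 5 and the lowest of 0, and mutant pool 2 the highest of 2. Mesenchyme markers were higher in all mutant pools than in any control pool as a sum, and 2 of the 14 (Col1a1 and Barx1) were called higher, against 3.67% of all genes. Collagen genes Col1a1, Col1a2 and Col3a1 made up most of that sum. Twist1 and Prrx1, mesenchymal transcription factors, went the other way: both lay below all controls in every mutant pool, at -0.55 and -0.18 log2, without being called (edgeR adjusted p = 0.126 and 0.0607). Their part in the Hox values was not tested.

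Among 9 partner genes of the Hox proteins, 2 were called, with small differences. Pbx and Meis proteins bind DNA together with Hox proteins and sharpen their choice of site. All 9 were tested, and edgeR called 2 higher, Pbx3 among them, and 0 lower, and 3 had no overlap with mutants higher, where 3.67% of all genes were called higher and 13.1% did not overlap in that direction. The list median was 0.18. Pbx3 rose from 61.1 ± 1.93 CPM to 69.6 ± 0.647 CPM (SD, n = 3), by 0.19 log2 (SE 0.048, edgeR adjusted p = 0.0465). That call was lost under 10 of the 15 alternatives run, DESeq2 among them (adjusted p = 0.102), and without each pool in turn except control pool 2.

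Meis2 was at 237.7, 252.4 and 233.3 CPM in controls and 260.7, 270.1 and 273.6 CPM in mutants, without overlap, and with a log2 fold change of 0.15 (SE 0.043) it missed the threshold (edgeR adjusted p = 0.069). It was called without control pool 2 (adjusted p = 0.0209). Meis1 overlapped between groups, at 237.9 ± 23.4 CPM and 251.4 ± 9.91 CPM (SD, n = 3). Pknox1, the gene of a related partner protein, was level at -0.02.

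**Figure D5:**
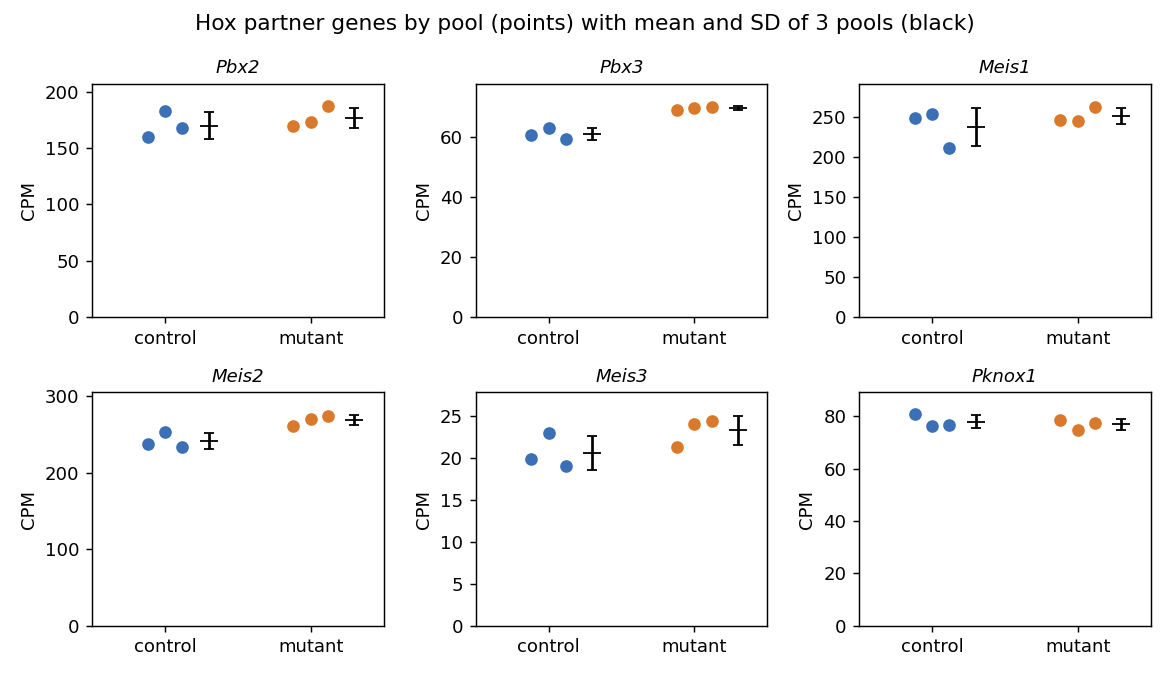
CPM of 6 Hox partner genes in each pool, with the mean and SD of 3 pools per genotype. Pbx3 and Meis2 are higher in every mutant pool than in any control pool, and of these 6 genes Pbx3 alone was called.

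The next lists hold genes that set up and keep Hox expression. Retinoic acid signalling and Cdx factors switch Hox genes on along the axis, and Polycomb and trithorax proteins hold them off or on. Of 10 retinoic acid, Cdx and Gdf11 genes, 5 were tested and edgeR called 0, with 1 at an unadjusted p under 0.05, where 7.95% of all genes were called and 21.1% had such a p. DESeq2 and limma voom called 0 too. Cdx4 and Cyp26c1 were at or below 1 read per pool, and Cdx2, which marks intestine, was at 0.236 CPM or less. Of 20 Polycomb and trithorax genes, all tested, edgeR, DESeq2 and limma voom each called 0, and their log2 fold changes ran from -0.14 to 0.14, with 1 gene at an unadjusted p under 0.05 by edgeR, against the same 7.95% and 21.1% of all genes.

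Other transcription factors that mark foregut and midgut territories placed the tissue alongside the Hox code. Of 16 listed genes, 13 were tested, and edgeR called 1 higher (Barx1) and 1 lower, against 3.67% and 4.28% of all genes. Barx1, a factor of stomach mesenchyme, rose from 61.8 ± 6.92 to 80.8 ± 9.27 CPM (SD, n = 3), by 0.39 log2 (SE 0.099, edgeR adjusted p = 0.0472), and this call was lost under 5 of 15 alternatives: without control pools 1 or 3, without mutant pools 2 or 3 and with total-count scaling. Tlx1, a spleen primordium gene, was read at 24.3 to 62.2 CPM, and the lung and thyroid gene Nkx2-1 had no read in any pool.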

How the data were processed

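STAR, HTSeq 0.6.1p1, cutadapt 1.13, DESeq2 and build mm10 are listed in the submitters' processing notes, without their roles. The annotation, the strand setting and the handling of overlapping genes are not stated there. Each deposited file holds raw counts per gene symbol, which the authors did not normalize.

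Counts were tested as deposited with edgeR 4.0.16 in R 4.3.3: filterByExpr with a minimum count of 10, TMM scaling, the quasi-likelihood F test with genotype as the only term, and Benjamini-Hochberg adjustment over all 14687 genes tested. A gene was called at an adjusted p under 0.05. Log2 fold changes are mutant minus control. Standard errors were taken from the fold change and its F value, and 95% intervals assume normality. These intervals are narrower than the F test implies: that of Hoxd9, 0.01 to 1.35, excludes 0 at an unadjusted edgeR p of 0.0767. Levels per kilobase divide CPM by the merged exon length of GENCODE M21 basic transcripts. The fit was tested on simulated counts that gave every gene the same spread between pools and held no outlying pool. That setting differs from these data, where genes with few reads and single pools varied more. Alternatives used edgeR with other scalings or filters, DESeq2 1.42.0, limma 3.58.1 (voom), a replicate block and left-out pools.

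Genes named with values were Hox genes with no overlap between groups, the 2 highest per cluster per length, the most tailward per cluster with at least 10 reads in a pool, called list members, Prox1, Meis1 and Meis2; some genes under this rule are not reported here. Other named genes were chosen after their values were seen. The members and lists were chosen with earlier results of these data known. Of 179 list entries, 170 matched a row.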

Additional observations from a re-analysis of the deposited data

How the results depend on the processing

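The count of Hox genes called was 0 higher and 0 lower under all 15 alternatives, and the median log2 fold change of the Hox genes among the 22 stayed above 0, between 0.04 and 0.16. With no filter, the median over all 32 Hox genes with reads was 0.17. The smallest adjusted p of any Hox gene was 0.0609, for Hoxa4 without control pool 2. Hoxa5 turned to -0.0054 with total-count scaling and ran from -0.053 to 0.099 as single pools were left out. Hoxb3 ran from -0.067 to 0.16, Hoxc5 from -0.026 to 0.16 and Meis1 from -0.0031 to 0.12. Without control pool 3 and mutant pool 1 together, Hoxb3 was at -0.056 and Hoxc5 at -0.045. The number of called partner genes was 1 with total-count scaling, with a filter of 1 CPM in 3 libraries, with DESeq2 and with the replicate block, 0 without control pool 3 and mutant pool 1, and 0 to 3 with single pools left out. The number of called foregut and midgut factors was 1 with total-count scaling, 4 with DESeq2 and 0 to 1 with single pools left out, and that of called genes beside the clusters 0 to 1. Over all genes, 282 to 696 were called higher and 343 to 725 lower with single pools left out, and 315 and 350 without control pool 3 and mutant pool 1. Same-numbered control and mutant pools did not deviate together (correlations of 0.138, 0.101 and -0.0497), so the numbers were not taken to pair the pools, and the replicate block left the Hox median at 0.10. The cause of these shifts was not tested, and leaving pools out also lowers the number of samples. Hox genes under about 1 CPM carry large counting error.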

Other observations

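Genes that lie beside or inside the clusters give a local reference. Of 15 flanking genes found, 13 were tested and edgeR called 0, with 2 at an unadjusted p under 0.05, against 7.95% and 21.1% of all genes. DESeq2 and limma voom called 0 as well. Evx1 and Evx2, homeobox genes at the tailward ends of HoxA and HoxD, had no read in any pool, like the nearest Hox13 genes of HoxA, while Mtx2, past the other end of HoxD, stood at 58.6 to 70.2 CPM. Ttll6, beside HoxB, varied within groups, at 11.3, 0.122 and 15.5 CPM in controls and 6.23, 7.36 and 1.602 CPM in mutants. The noncoding gene 2700086A05Rik, inside HoxA, was at 0.365 to 0.597 CPM in controls and 0.687 to 1.24 CPM in mutants, without overlap, and missed the threshold at a log2 fold change of 1.08 (SE 0.36, edgeR adjusted p = 0.119). The microRNA rows Mir10a, Mir10b, Mir196a-1, Mir196a-2 and Mir196b had at most 1 read per pool.

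Control pool 2 also differed in some regional genes, though not in tailward Hox genes. Pitx1, a hindlimb and oral gene, was at 9.93 CPM there and 0.858 to 2.18 CPM elsewhere. Sox2, listed among the foregut and midgut factors, was at 5.73 CPM in that pool and 0.353 to 0.716 CPM in the others. Foxf1a, a listed mesenchyme marker, was at 9.26 CPM in that pool and 2.63 to 5.41 CPM in the others.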
